A study of Homo sapiens with 2 samples.

Results

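Fatty acid synthesis and desaturation was described through 10 genes, ACLY, ACACA, FASN, SCD, ELOVL6, FADS1, FADS2, ACSS2, ME1 and ACSL3, out of 19775 genes named on the arrays. The members were chosen as the enzymes that make acetyl-CoA and NADPH for the pathway, build the fatty acid, lengthen it, put double bonds into it and activate it, and every probe set that the platform annotation gives to them was taken. All RNA came from AGS, an established line of human stomach adenocarcinoma cells. The silenced group was AGS cells in which galectin-3 (LGALS3), a lectin that binds beta-galactosides, had been silenced with a synthetic double-stranded small interfering RNA. The control group was AGS cells labelled control. The sequence and dose of the interfering RNA, the time after transfection and the treatment of the control cells are not stated in the labels, and no other allele or agent is named for either group. Each group had 1 array, so no difference below has a replicate check, no test was made, and precision is limited by having only 2 arrays.

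Fatty acids are made in the cytosol from acetyl-CoA. ATP citrate lyase frees acetyl-CoA from citrate, acetyl-CoA carboxylase turns it into malonyl-CoA, and fatty acid synthase joins these units into palmitate with NADPH as the reductant. Palmitate is then lengthened by elongases and desaturated by membrane enzymes of the endoplasmic reticulum, and acyl-CoA synthetases activate free fatty acids for use. Many of these genes are targets of the sterol regulatory element-binding proteins (SREBPs), membrane-bound transcription factors that also drive cholesterol synthesis, and many tumours make fatty acids in this way.

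Of the 10 genes 6 were measured, and all 6 had a lower signal on the silenced array than on the control array, with the deposited scaling. SCD, the stearoyl-CoA desaturase, was 2.03-fold lower on the probe set that stands for it, and FASN, the fatty acid synthase, was 1.82-fold lower. ACLY was 1.33-fold and ACSS2 1.23-fold lower. ELOVL6 and ACACA were lower by 1.07-fold each, a difference whose sign turned when the arrays were scaled to their hybridization controls. FADS2 and ME1 were under the detection floor on both arrays, FADS1 had no probe set of its own in the annotation, and ACSL3 was not analysed here.

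A gene was called measured when the probe set that stands for it, the one with the highest mean log2 signal, lay above a floor on at least 1 array. The floor came from 135 olfactory receptor probe sets, of which it is the 95th percentile, and was 109.5 on the silenced array and 138.4 on the control array. Each log2 ratio sets the silenced over the control signal, after signals under the floor were raised to it. By this rule 10514 genes were measured, with a median log2 ratio of -0.02 and a middle 50% from -0.29 to 0.28. LGALS3, the targeted gene, had a signal of 2699.8 on the silenced array against 20206.3 on the control array, 7.48-fold lower and the lowest ratio of all measured genes.

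Of 8 markers of epithelium all 8 were measured and none was lower on the silenced array, where 48% of all measured genes were. CLDN4 was 2.12-fold higher, and KRT7 was under the floor on the control array. The summed signal of the 8 was 119042 on the silenced array against 96767.8 on the control array. Whether this bears on the fatty acid genes was not tested. The markers of other cell types were near background. Of 6 leukocyte and 6 hepatocyte markers 0 were above the floor on either array. Of 7 adipocyte markers 1 was above it, CIDEC on the silenced array alone, at 110.3 there and 123.7 on the control array, and ADIPOQ, LEP and PLIN1 were under the floor. Of 7 fibroblast markers COL1A1 was above it, with 1502.0 on the silenced array and 816.3 on the control array, but with log2 ratios of -0.55 and 0.53 on other probe sets, while COL3A1, DCN and LUM were under it. The summed signals on the silenced array and on the control array were 165.9 and 112.7 for leukocyte markers, 281.7 and 324.2 for hepatocyte markers, 231.0 and 300.6 for adipocyte markers and 1662.5 and 1064.2 for fibroblast markers. In cultured cells measured in bulk, fewer cells using a gene and less RNA per cell cannot be told apart.

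The 10 genes had 23 probe sets, 20 of them annotated to a single gene. Of these 20, 14 were above the floor on at least 1 array. With the deposited scaling all 14 gave a log2 ratio below 0, where 48.2% of all measured probe sets did. These 14 come from 6 genes and the same RNA, so they are not separate observations. Of the 6 measured genes all 6 gave a ratio below 0 with that scaling, where 48% of all measured genes did. With the hybridization controls set equal, ACACA probe sets gave 0.08 and 0.03, and ELOVL6 probe sets 204256_at and 210868_s_at gave 0.08 and 0.05. The members were chosen with earlier results of these data known. By a rule of size of 2-fold, 1 of the 6 genes was lower, SCD, and 0 were higher, beside 3.07% lower and 3.31% higher among all measured genes. At 1.5-fold 2 of the 6 were lower, SCD and FASN, beside 10.4% of all measured genes. The median log2 ratio of the 6 genes was -0.36, against -0.02 for all measured genes. With so few genes, each call moves these shares by a large step.

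**Figure D1:**
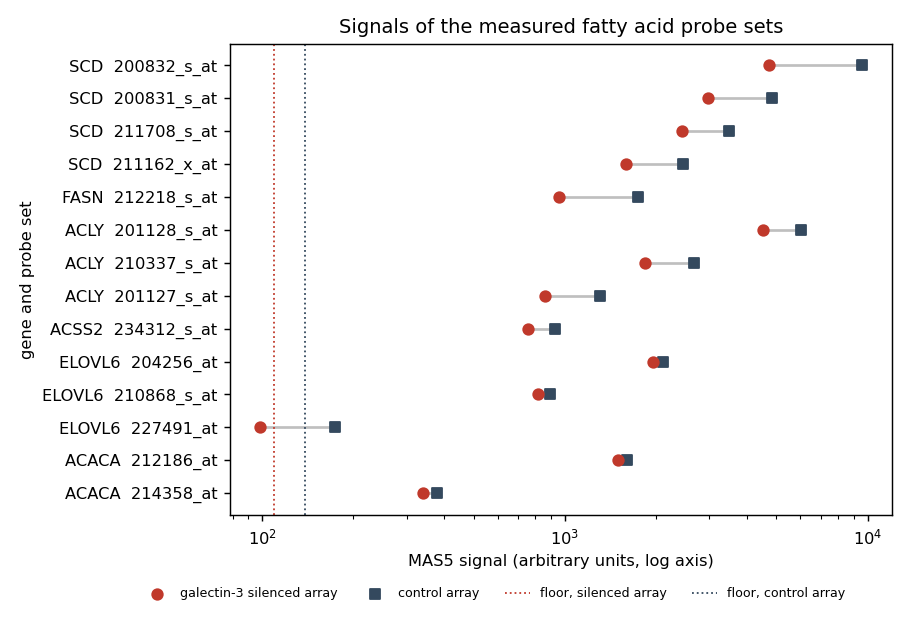
MAS5 signals (x axis, log scale, arbitrary units) of the 14 measured fatty acid probe sets (y axis), with circles for the silenced array, squares for the control array and dotted lines at the floors. Every circle lies left of its square, from 4725.8 against 9610.3 for SCD probe set 200832_s_at to 1500.7 against 1605.3 for ACACA, and only ELOVL6 probe set 227491_at falls under a floor; signals of different probe sets are not comparable with each other.

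Of the member enzymes that supply acetyl-CoA and NADPH, ACLY was the one with several probe sets above the floor. ACLY, ATP citrate lyase, links glucose carbon to fatty acids by cleaving the citrate exported from mitochondria. Probe set 201128_s_at, which stands for the gene, had a signal of 4525.3 on the silenced array against 6040.7 on the control array, a log2 ratio of -0.42. Probe set 210337_s_at had 1843.6 on the silenced array against 2671.6 on the control array, a log2 ratio of -0.54. Probe set 201127_s_at had 860.3 on the silenced array against 1303.6 on the control array, a log2 ratio of -0.60. All 3 ACLY probe sets thus gave silenced signals between 66.0% and 74.9% of the control signal, and the one that stands for the gene gave the smallest difference. The SD of the log2 ratio over these 3 probe sets was 0.09, which is spread on the same RNA and not between cultures.

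ACSS2 and ME1 each feed the same pools by another route. ACSS2, the cytosolic acetyl-CoA synthetase, makes acetyl-CoA from acetate. Its single probe set had a signal of 754.0 on the silenced array against 927.3 on the control array, a log2 ratio of -0.30, at the edge of the middle 50% of all genes. ME1, the cytosolic malic enzyme, yields NADPH by turning malate into pyruvate. Its 3 probe sets had signals of 22.1, 5.1 and 1.1 on the silenced array against 47.0, 49.0 and 6.7 on the control array. These lie under both floors, so no ratio is given for ME1.

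ACACA, acetyl-CoA carboxylase 1, makes malonyl-CoA, the committed step of the pathway. Probe set 212186_at had a signal of 1500.7 on the silenced array against 1605.3 on the control array, a log2 ratio of -0.10. Probe set 214358_at had 340.8 on the silenced array against 378.3 on the control array, a log2 ratio of -0.15. Both ACACA ratios lie well inside the middle 50% of all genes, and 41.5% of the measured genes had a lower ratio than ACACA.

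FASN, the multifunctional synthase that makes palmitate, differed by more. Its probe set 212218_s_at had a signal of 958.8 on the silenced array against 1747.4 on the control array, a log2 ratio of -0.87, so that the silenced signal was 54.9% of the control signal. The other probe set, 217006_x_at, had 43.4 on the silenced array against 51.8 on the control array and was under the floor on both. The FASN difference therefore rests on 1 probe set. Of all measured genes 4.50% had a lower ratio than FASN.

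Among the enzymes that act on palmitate and stearate, SCD differed most and ELOVL6 little. SCD places the first double bond into stearate and palmitate and so makes oleate and palmitoleate. Its 4 probe sets were all lower on the silenced array, by unequal amounts. Probe set 200832_s_at, which stands for the gene, had a signal of 4725.8 on the silenced array against 9610.3 on the control array, a log2 ratio of -1.02. Probe set 200831_s_at had 2976.5 on the silenced array against 4838.2 on the control array, a log2 ratio of -0.70. Probe set 211162_x_at had 1587.7 on the silenced array against 2448.8 on the control array, a log2 ratio of -0.63. Probe set 211708_s_at had 2434.7 on the silenced array against 3498.8 on the control array, a log2 ratio of -0.52. Silenced signals of SCD were thus 49.2% to 69.6% of the control signals, and the probe set that stands for the gene was the only one of the 4 past 2-fold. The SD over the 4 ratios was 0.22, and the median of the probe sets, -0.66, is a 1.5-fold and not a 2-fold difference by the rule of size. On its main probe set SCD was the gene with the 303rd lowest ratio, with 2.87% of the measured genes below it.

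ELOVL6 lengthens palmitate to stearate, the substrate that SCD desaturates. Probe set 204256_at had a signal of 1961.7 on the silenced array against 2103.1 on the control array, a log2 ratio of -0.10. Probe set 210868_s_at had 817.6 on the silenced array against 892.7 on the control array, a log2 ratio of -0.13. Probe set 227491_at had 98.5 on the silenced array, under its floor, against 173.7 on the control array, which makes it at least 1.59-fold lower on the silenced array. The bound of the dim probe set thus goes further than the ratios of the other two, so the ELOVL6 probe sets did not give the same size of difference.

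Of the member desaturases of polyunsaturated fatty acids, FADS2 was near background in these cells, and FADS1 could not be read alone. FADS2, the delta-6 desaturase, had signals of 7.5 and 9.7 on the silenced array against 48.2 and 6.8 on the control array over its 2 probe sets. FADS1, the delta-5 desaturase, shares its 3 probe sets with the microRNA gene MIR1908 in the annotation, so they name neither gene here and enter no count. Those shared probe sets had signals of 106.8, 14.1 and 3.9 on the silenced array against 109.1, 13.6 and 9.8 on the control array. All of these values lie under the floors, and no ratio is given. ACSL3, which activates long-chain fatty acids to acyl-CoA, was not analysed here because the annotation table used lists no probe set under its name.

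**Figure D2:**
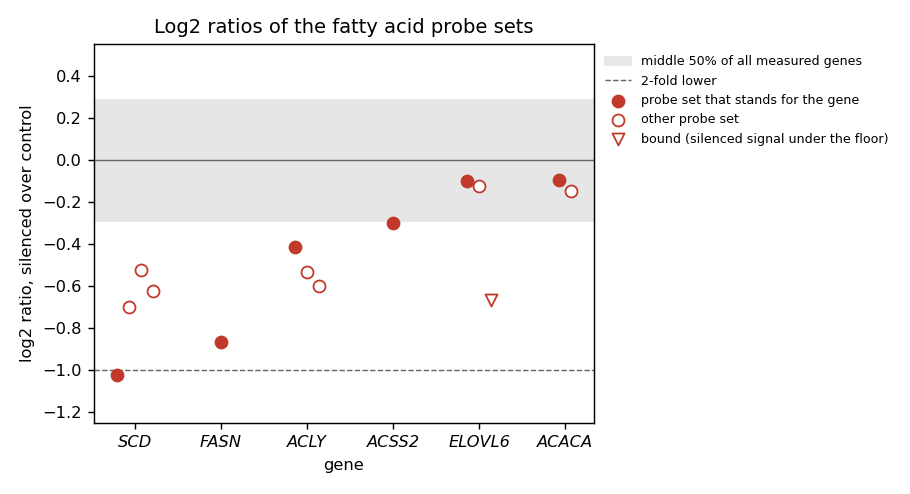
Log2 ratio of the silenced over the control array (y axis) for each measured probe set of the 6 genes (x axis), with filled circles for the probe set that stands for the gene, open circles for the others and a triangle for a bound. The grey band is the middle 50% of all measured genes, from -0.29 to 0.28; all probe sets of SCD, FASN and ACLY lie under it, and the 4 circles of ELOVL6 and ACACA lie inside it.

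Set against genes of like brightness, SCD and FASN again stood lowest of the 6. Genes above the floor on both arrays were put into 20 bins of mean log2 signal, and in each bin the spread was taken as a robust SD, the scaled median absolute deviation, which mixes noise with real differences. SCD, on its main probe set, lay at -2.88 robust SDs from the median of the 479 genes in its bin, with a robust SD of 0.35. With the median of its probe sets SCD had a log2 ratio of -0.66, above FASN at -0.87. FASN lay at -1.93, ACLY at -1.16 and ACSS2 at -0.68 robust SDs. ACACA at -0.20 and ELOVL6 at -0.19 lay close to the middle of their bins. Probe sets of the same gene differed in log2 ratio with an SD of 0.32 over 4728 genes, which is larger than the ACACA, ELOVL6 and ACSS2 ratios and smaller than those of ACLY, FASN and SCD.

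**Figure D3:**
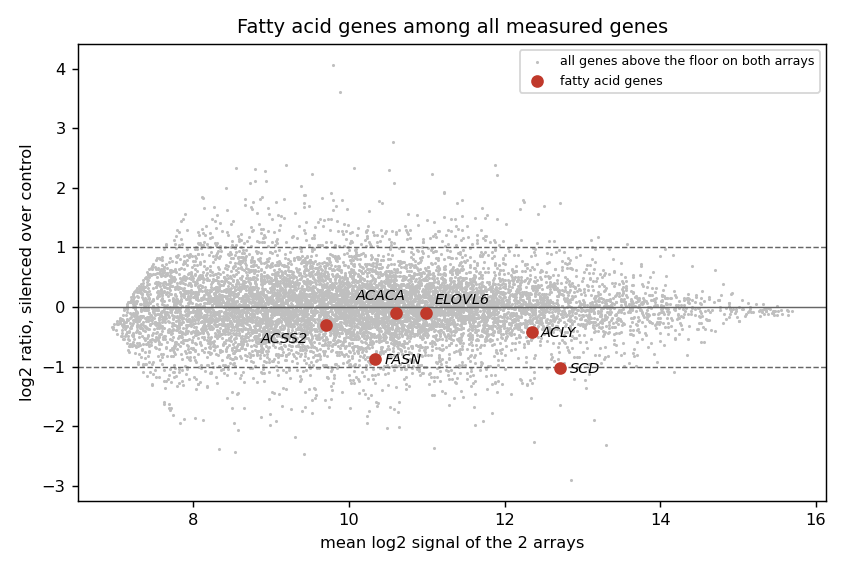
Log2 ratio of the silenced over the control array (y axis) against the mean log2 signal of both arrays (x axis) for the 9579 genes above the floor on both arrays (grey), with the 6 measured fatty acid genes in red and dashed lines at 2-fold. SCD at -1.02 lies just past the lower line, FASN at -0.87 just inside it, and ACACA and ELOVL6 at -0.10 lie in the middle of the grey cloud.

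The arrays could be scaled in other ways, and setting control probe sets equal moves the 6 genes together. Other scalings need not, since quantile normalization took SCD from -1.0240 to -1.0024 and ACSS2 from -0.2985 to -0.3040. Setting the 18 hybridization controls equal, whose median log2 ratio was -0.18, put the median of all measured genes at 0.17 and the fatty acid median at -0.18. Setting the 19 poly-A controls equal, whose median log2 ratio was 0.23, put the median of all measured genes at -0.25 and the fatty acid median at -0.59. SCD had log2 ratios from -1.26 to -0.84 over the deposited and 5 other scalings, FASN from -1.10 to -0.68, ACLY from -0.65 to -0.24 and ACSS2 from -0.53 to -0.12. ACACA and ELOVL6 turned to 0.08 each with the hybridization controls set equal, which is still below the median of all measured genes under that scaling. SCD, FASN, ACLY and ACSS2 stayed below 0 in all 6 scalings.

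**Figure D4:**
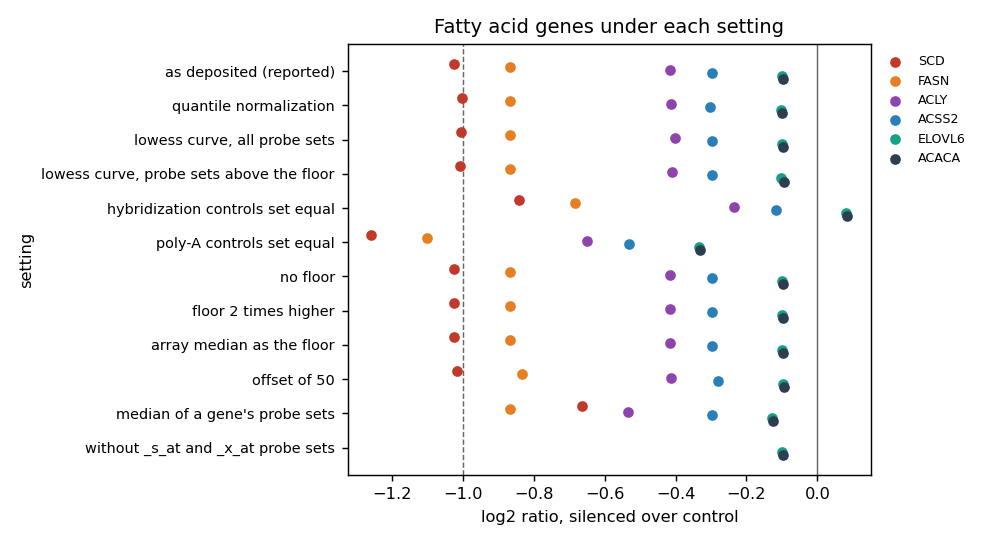
Log2 ratio of the silenced over the control array (x axis) of the 6 genes under each setting (y axis), with a dashed line at 2-fold lower. The order of the genes is led by SCD and FASN wherever they have a value. SCD leaves the 2-fold range with the hybridization controls set equal (-0.84) and with the median of its probe sets (-0.66), where FASN (-0.87) is lowest. Only ACACA and ELOVL6 remain when _s_at and _x_at probe sets are left out.

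The start regions of SCD, ACLY and ELOVL6 are shown because these genes of one pathway gave unequal ratios, from the lowest of the 6 to nearly the highest. The sequences are RefSeq promoter windows of build GRCh38.p14, which run from 250 bases before to 50 bases after a gene start. Of the 6 measured genes 5 were matched by symbol, with 9 windows in all, and FASN is named only. Windows were searched on both strands for the letters TCACNCCA of the sterol regulatory element, which SREBPs bind, CCAAT of the NF-Y box, GGGCGG of the GC box, which Sp1 binds, and CACGTG of the E-box. Capitals mark every match, in either orientation. The SCD window is chr10:100346983-100347282 on the plus strand, the ACLY window chr17:41918902-41919201 on the minus strand and the ELOVL6 window chr4:110198566-110198865 on the minus strand.
SCD: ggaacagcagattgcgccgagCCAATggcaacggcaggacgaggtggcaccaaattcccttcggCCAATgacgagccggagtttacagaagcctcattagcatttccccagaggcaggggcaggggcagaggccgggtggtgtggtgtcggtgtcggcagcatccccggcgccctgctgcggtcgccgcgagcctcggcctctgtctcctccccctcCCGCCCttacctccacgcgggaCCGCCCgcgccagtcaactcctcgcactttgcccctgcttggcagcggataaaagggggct
ACLY: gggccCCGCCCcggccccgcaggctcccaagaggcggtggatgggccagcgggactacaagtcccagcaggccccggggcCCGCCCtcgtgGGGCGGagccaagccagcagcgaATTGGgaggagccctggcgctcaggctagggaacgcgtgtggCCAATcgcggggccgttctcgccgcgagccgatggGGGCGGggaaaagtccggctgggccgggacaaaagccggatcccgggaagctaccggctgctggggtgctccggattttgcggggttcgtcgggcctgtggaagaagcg
ELOVL6: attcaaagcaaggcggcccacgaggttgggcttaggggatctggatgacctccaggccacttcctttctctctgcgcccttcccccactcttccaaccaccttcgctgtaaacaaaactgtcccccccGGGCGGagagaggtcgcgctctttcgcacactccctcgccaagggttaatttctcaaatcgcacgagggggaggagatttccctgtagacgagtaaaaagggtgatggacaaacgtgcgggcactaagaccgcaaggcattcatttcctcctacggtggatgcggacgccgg

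The windows differed in the motifs they hold. SCD, with the lowest ratio, held 2 NF-Y boxes and 2 GC boxes. This ACLY window held 2 NF-Y boxes and 4 GC boxes, and a second, overlapping ACLY window held the same numbers. ELOVL6 held 0 NF-Y boxes and 1 GC box. ACACA, whose ratio was as near to 0 as that of ELOVL6, has 3 windows, with 2, 1 and 0 NF-Y boxes and 0, 7 and 6 GC boxes. ACSS2 has 2 windows, with 1 and 0 NF-Y boxes and 1 and 3 GC boxes. Over all 35116 windows in the table, 34.6% held an NF-Y box and 45.0% a GC box. The sterol regulatory element and the E-box were found in 0 of the 9 windows of the measured members, beside 3.95% and 7.26% of all windows. These are matches of letters in short windows, and a missing match says only that these letters are not in this window.

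The nearest relatives of the enzymes had ratios on both sides of 0. Of 17 paralogs 9 were measured, with 2 at least 2-fold lower and 1 higher, beside 3.07% and 3.31% of all measured genes. Their median log2 ratio of 0.03 became -0.21 once the poly-A controls were equalised, where that of all measured genes was -0.25. It was -0.04 with the array median as the floor and -0.11 without _s_at and _x_at probe sets. SCD5, the second human stearoyl-CoA desaturase, had 986.0 on the silenced array against 845.7 on the control array, a log2 ratio of 0.22, beside -1.02 for SCD. Its other probe sets ran from 0.12 to 0.41, and their ratios do not overlap those of the 4 SCD probe sets. ELOVL7, an elongase of long saturated chains, had 293.0 on the silenced array against 858.2 on the control array, a log2 ratio of -1.55 and thus further down than ELOVL6. ME2, the mitochondrial NAD-dependent malic enzyme, had 1327.8 on the silenced array against 2739.1 on the control array, a log2 ratio of -1.04, with -0.90 and -0.68 on its other probe sets. ACSL5, an acyl-CoA synthetase, was at least 5.51-fold higher, with 763.0 on the silenced array and 108.2 on the control array, under the floor. Its relatives ACSL1 and ACSL4 had log2 ratios of -0.21 and 0.39, and another ACSL1 probe set gave -0.81. ME3 had 0.54. ACACB had -0.11, and 0.14 on another probe set, and FADS3 had 0.03, and 0.74 on another. ELOVL2, ELOVL3, ELOVL4, ELOVL5, ACSS1, ACSS3 and ACSL6 were under the floor on both arrays.

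The regulators of the pathway had ratios on both sides of 0. Of 13 genes of SREBP control 10 were measured, 1 lower and 1 higher by 2-fold or more, beside 3.07% and 3.31% of all measured genes. Their median log2 ratio of -0.08 turned to 0.10 with the hybridization controls set equal, where that of all measured genes was 0.17. SREBF1, whose product is the SREBP known for driving fatty acid genes, had 376.9 on the silenced array against 710.1 on the control array, a log2 ratio of -0.91. SREBF2, whose product is known for driving cholesterol genes, had 315.5 on the silenced array against 358.0 on the control array, a log2 ratio of -0.18, with -0.23 and -0.56 on other probe sets. INSIG1 and INSIG2, which both hold the SREBP complex in the endoplasmic reticulum, had ratios of opposite sign. INSIG1 had 636.4 on the silenced array against 2255.9 on the control array, a log2 ratio of -1.83, and INSIG2 had 1884.5 on the silenced array against 773.6 on the control array, a log2 ratio of 1.28. Of the proteases that release SREBP, MBTPS2 had a log2 ratio of -0.99 on 1 probe set and -0.39 on another, and MBTPS1 had 0.15. SCAP, the escort of SREBP, had a log2 ratio of -0.29, and the oxysterol receptor NR1H3 had 0.02. MLX, a partner of the glucose-responsive factor MLXIPL, had 0.36, RNF139, a ubiquitin ligase of the endoplasmic reticulum, had 0.34, and MLXIPL itself was under the floor.

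Cholesterol genes, the other large set of SREBP targets, had a lower median than the fatty acid genes. Of 23 listed 17 were measured, with 5 at least 2-fold lower and 0 higher, beside 3.07% and 3.31% of all measured genes. Their median log2 ratio was -0.70 against -0.36 for the fatty acid genes. The 4 lowest were HMGCS1 at -1.42, MSMO1 at -1.21, DHCR7 at -1.14 and STARD4, a sterol carrier, at -1.09, all of them lower than SCD, with SQLE the remaining one at -1.04. The ranges overlapped, since PMVK had a log2 ratio of 0.76 and SC5D 0.04, and the difference between the lists was not tested. The cholesterol median ran from -0.94 with the poly-A controls set equal to -0.52 with the hybridization controls set equal, and it lay below the fatty acid median in each of these scalings. The number at least 2-fold lower was 6 with the poly-A controls set equal, beside 6.02% of all measured genes. It was 2 with the hybridization controls set equal, beside 1.74%.

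Genes that supply, use or break down fatty acids had medians nearer to that of all genes. Of 11 measured genes for the supply of acetyl-CoA, malonyl-CoA and NADPH 0 passed 2-fold, beside 3.07% lower and 3.31% higher among all measured genes. A count of 0 in so short a list lies near those shares. The median log2 ratio of the 11 genes was -0.21. The largest were subunits of the AMP-activated kinase, which inhibits acetyl-CoA carboxylase: PRKAB1 at -0.88 and PRKAA1 at -0.86, although other PRKAA1 probe sets ran from -0.99 to 0.12. SLC25A1, which exports the citrate that ACLY cleaves, had 1239.4 on the silenced array against 1461.4 on the control array, a log2 ratio of -0.24, and was named after its value was seen. Of 18 measured genes of glycerolipid synthesis 0 passed 2-fold on the probe sets that stand for them, again near the shares of all measured genes. LPCAT3, a lysophospholipid acyltransferase, led at -0.85, followed by AGPAT5 at -0.57. Other probe sets gave -0.59 for LPCAT3, -1.19 for AGPAT5 and -1.13 for GPAT4, whose main probe set gave 0.08. The glycerolipid median of -0.05 turned to 0.13 with the hybridization controls set equal, where that of all measured genes was 0.17.

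The remaining lists had medians slightly above 0 that all turned below 0 with the poly-A controls set equal. That scaling put the median of all measured genes at -0.25, and the list medians stayed above it. Of 9 measured genes of the elongation cycle and of mitochondrial fatty acid synthesis 0 passed 2-fold with the deposited scaling. The shares of all measured genes were 3.07% lower and 3.31% higher, and a count of 0 lies near them. The list median log2 ratio of 0.11 turned to -0.12. CYB5R3, a reductase that passes electrons to cytochrome b5 for desaturation, had 0.59, and CBR4 had 0.43 with other probe sets from -0.50 to 0.09. Of 19 measured genes of fatty acid oxidation 0 passed 2-fold, near the same shares, with a median of 0.10 that turned to -0.14. With the hybridization controls set equal 2 of them were at least 2-fold higher, beside 5.48% of all measured genes. Their median was then 0.28, against 0.17 for all measured genes. ETFDH, which passes electrons from oxidation to ubiquinone, had 0.90 and ACADVL, which starts the oxidation of very long chains, 0.82. Of 10 measured genes of uptake, binding and lipid droplets 1 passed 2-fold, beside the same shares of all measured genes. It was SLC27A1, a fatty acid transporter, 2.94-fold higher, with 406.5 on the silenced array against 138.4 on the control array. Its control value thus lay at the floor itself. The list median of 0.13 turned to -0.10.

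**Figure D5:**
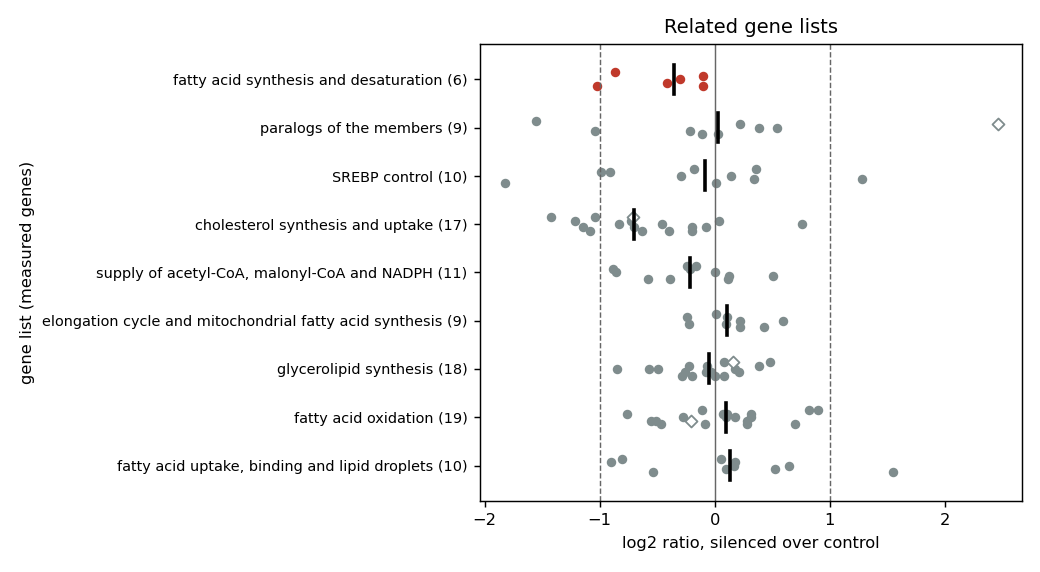
Log2 ratio of the silenced over the control array (x axis) of every measured gene in 9 lists (y axis, number of measured genes in brackets), with diamonds for bounds, black bars at list medians and dashed lines at 2-fold. The fatty acid genes, in red, all lie below 0 with a median of -0.36; the cholesterol genes have the lowest median, -0.70, and the other lists lie on both sides of 0.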

How the data were processed

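Per the labels' protocols, Trizol-extracted RNA was made into biotinylated cRNA for Affymetrix arrays of a single colour, 1 of silenced and 1 of control AGS cells. The authors deposited linear intensity signals from MAS5, per the submitters' processing notes. Its version, target and filters are not given in those notes. MAS5 treats each array separately, and its dim signals are noisy. A shared trimmed mean conceals any shift in total RNA. The trimmed means were 499.8 on the silenced array and 499.5 on the control array, so the deposited scaling was kept. Above the floor were 42.0% of the 54675 probe sets on the silenced array and 38.4% on the control array.

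Of these probe sets 41097 carry 1 gene symbol in the platform annotation, 1801 carry several and name no gene, and 11777 are unnamed here. By gene identifier 41043 matched the RefSeq table of GRCh38.p14. Each gene was represented by its brightest probe set (mean log2 signal), with _x_at probe sets only where it had no other. The _s_at suffix marks probes shared by several transcripts, and _x_at marks probes that may cross-hybridise. Log2 ratios were computed with Python 3.11.15 and numpy 2.4.6, and the procedure was tested on simulated data. All members were described. Each related list gave the 4 largest ratios past 2-fold, or the 2 largest where none passed, and the lists of paralogs and SREBP control gave every measured gene. SQLE, SC5D, PMVK, SLC25A1 and GPAT4 were named after their values were seen. The members and lists were chosen with earlier results of these data known. With 2 arrays no likeness of patterns across samples could be measured. Alternatives were 5 scalings, 4 choices of floor or offset, 2 ways to pick a gene's value and a 1.5-fold rule.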

Additional observations from a re-analysis of the deposited data

How the results depend on the processing

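The median log2 ratio of the fatty acid genes, -0.36 as reported, stayed below 0 under all 11 alternatives that give it, from -0.59 with the poly-A controls set equal to -0.10 without _s_at and _x_at probe sets. The last alternative left ACACA and ELOVL6 alone. The number of fatty acid genes at least 2-fold lower was less steady. It was 1 as reported, 0 with the hybridization controls set equal, 0 with the median over all of a gene's probe sets, 0 without _s_at and _x_at probe sets, 2 with the poly-A controls set equal and 2 at 1.5-fold. SCD was past 2-fold in 8 of its 10 alternatives, and FASN in 1, the poly-A controls set equal. Without _s_at and _x_at probe sets SCD has no value. The number at least 2-fold higher was 0 under each of the 12 alternatives. ACACA and ELOVL6 turned to 0.08 under 1 alternative each, the hybridization controls set equal. Of all measured genes past 2-fold, 51.9% were higher as reported, 75.9% with the hybridization controls set equal and 22.7% with the poly-A controls set equal. Values moved by less than 0.32, the SD between probe sets of one gene, were taken as steady, since no replicate spread exists. By this measure no median of a related list moved under any alternative, though several changed sign as given above. The hybridization and poly-A controls had median log2 ratios of -0.18 and 0.23. Setting either equal therefore could not move a value by 0.32, and that SD is of single probe sets, not of list medians. Beside SCD, at -0.66 with the median of its probe sets, no measured member moved. No paired analysis was possible because each group has 1 array. Signals of FADS2, ME1 and the probe sets shared by FADS1 and MIR1908 are limited by background.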
